A study of Mus musculus with 4 samples.

Results

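The mammalian cell cycle runs through a phase of DNA replication and, later, a phase of mitosis, and each has its own set of genes. This account follows 43 such genes in mouse lung, chosen by name from their textbook phase: 17 genes of DNA replication (licensing of origins, the replicative helicase, the sliding clamp, nucleotide supply and their regulators) and 26 genes of mitosis (the mitotic kinases and cyclins, the spindle and kinetochore proteins, the anaphase ubiquitin machinery and their regulators). They were taken from 47729 genes in the count files, the rule uses no measured value, and all 43 passed the filter on low counts. The members were, however, chosen with earlier results of these data known, so a pattern they share is not an independent finding. The libraries came from lungs of mice of strain BL/6 with the genotype given as Control (Rosa). In one group, 2 libraries, the mice were Normoxic, and in the other, also 2 libraries, they were Sugen-Hypoxic. Sugen is an inhibitor of VEGF receptors that is combined with low oxygen in rodents to produce pulmonary hypertension. No group had Sugen or hypoxia alone, and the sources used here give no dose, duration or age. The sex entries of the labels list several animals per library, so a library was read as a pool: 3 females in normoxic replicate 1, 1 female and 2 males in normoxic replicate 2, and 2 males in each Sugen-hypoxia replicate. Both treated pools were thus male only, and no normoxic pool was. The series concerns KCNK3 mutations, but the libraries analysed here all had the genotype Control (Rosa), so no mutation was studied.

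In an adult lung most cells are at rest, and the cells in cycle are a small minority drawn from several lineages. Transcripts of replication genes are made under control of E2F factors from late G1 and through S phase. Those of mitotic genes appear later, in G2 and M, when the MuvB complex together with B-Myb and FoxM1 activates promoters that carry a cell cycle homology region (CHR) and, near it, boxes bound by NF-Y. In RNA from whole lung, more cells in a phase and more RNA per cycling cell cannot be told apart.

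The promoter windows of the classes differed in their shares with a CHR element or an E2F site, while the NF-Y box was frequent in both. RefSeq promoter windows on GRCm38.p6, 300 bases each from 250 before to 50 after a start site, were found for 21 of 26 mitotic and 14 of 17 replication genes, with chromosome 18 left out. Members with no window were Ccna2, Aurkb, Kif20a, Tpx2, Foxm1, Mcm4, Gins1 and Gins2. The motifs searched on both strands were the CHR element as TTTGAA or TTCGAA, the E2F site as TTTCCCGC, TTTGGCGC, TTTCGCGC or TTTGCCGC, and the NF-Y box as CCAAT. A CHR element was found in 17 of 21 mitotic windows (81.0%) and in 3 of 14 replication windows (21.4%), beside 3498 of all 19386 windows. An E2F site was found in 1 of 21 mitotic windows (4.76%, the window of Cdk1) and in 6 of 14 replication windows (42.9%), beside 2.74% of all. With another E2F core (GGCGGGAA or TTCCCGCC) the counts were 0 of 21 and 3 of 14. The NF-Y box stood in 19 of 21 (90.5%) and 10 of 14 (71.4%), beside 38.3% of all. A CHR element lay within 50 bases of the start site in 15 of 21 mitotic windows and in 1 of 14 replication windows. That count was not made over all windows. Matches of different motifs overlapped by at least 1 base in 2 cases among the members. These are matches of letters, not measured binding, and they carry no test.

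**Figure D1:**
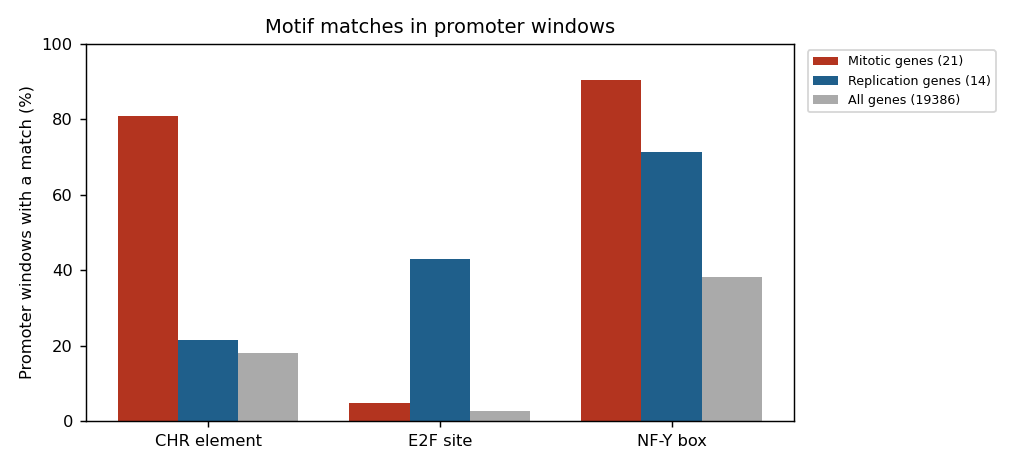
Share of promoter windows with at least 1 match (percent, vertical axis) to the CHR element, the E2F site and the NF-Y box, for 21 mitotic genes, 14 replication genes and all 19386 genes with a window. The CHR bar stands at 81.0% for mitotic genes against 21.4% for replication genes, and the E2F bar at 42.9% for replication genes against 2.74% for all genes.

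Examples of each class, chosen because they hold the matches, are printed as the 160 bases before the start site, 5′ to 3′ on the gene's strand, with every match to a CHR element, E2F site or NF-Y box in capitals. The first sequence is that of the mitotic kinase gene Cdk1 (chr10:69352913-69353072, minus strand), with 1 E2F site followed by NF-Y boxes that alternate with CHR elements. The others are Ube2c, the ubiquitin-conjugating enzyme of anaphase (chr2:164769769-164769928, plus), and Cdc20, the activator of the anaphase-promoting complex (chr4:118437344-118437503, minus). The replication examples are the helicase subunits Mcm6 (chr1:128359706-128359865, minus) and Mcm5 (chr8:75109349-75109508, plus), in which E2F sites on opposite strands overlap, and the loading factor Cdc6 (chr11:98907991-98908150, plus). For Cdc6 the RefSeq start site lies 350 bases downstream of the GENCODE gene start, so the printed bases fall inside that gene.
Cdk1: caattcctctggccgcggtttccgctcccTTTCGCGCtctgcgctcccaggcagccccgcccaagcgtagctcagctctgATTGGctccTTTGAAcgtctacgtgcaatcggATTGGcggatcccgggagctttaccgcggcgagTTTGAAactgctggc
Ube2c: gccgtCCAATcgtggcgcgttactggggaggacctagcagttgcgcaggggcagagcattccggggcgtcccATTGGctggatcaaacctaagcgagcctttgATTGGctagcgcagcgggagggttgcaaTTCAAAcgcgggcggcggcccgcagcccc
Cdc20: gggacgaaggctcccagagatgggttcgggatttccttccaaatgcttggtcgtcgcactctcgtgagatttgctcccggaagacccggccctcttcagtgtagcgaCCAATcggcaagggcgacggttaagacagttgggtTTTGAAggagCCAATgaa
Mcm6: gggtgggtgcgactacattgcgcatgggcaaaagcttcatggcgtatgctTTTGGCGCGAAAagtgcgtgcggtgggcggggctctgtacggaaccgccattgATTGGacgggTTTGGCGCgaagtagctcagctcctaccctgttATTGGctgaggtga
Mcm5: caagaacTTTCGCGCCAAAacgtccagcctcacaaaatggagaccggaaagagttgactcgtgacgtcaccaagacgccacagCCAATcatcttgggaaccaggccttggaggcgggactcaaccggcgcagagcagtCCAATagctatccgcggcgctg
Cdc6: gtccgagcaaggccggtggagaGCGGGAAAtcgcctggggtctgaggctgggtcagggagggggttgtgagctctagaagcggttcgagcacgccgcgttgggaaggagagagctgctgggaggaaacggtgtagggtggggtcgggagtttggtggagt

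Gene counts summed to 57.3 to 67.1 M per library (M, 1e6), so 1 CPM (count per 1e6 gene counts) stands for 57.3 reads or more. Sftpc, which encodes a surfactant protein, ran from 11239 to 12003 CPM across the libraries, and the 11 kidney markers together at 9.02 to 12.0 CPM with Umod at 0 in 3 of 4 libraries, the profile of lung, although the extraction text names kidneys. Nothing in the labels says whether the pools came from separate cohorts, and p-values measure only the spread between these 4 pools.

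The answer to the phase comparison was split between the treated pools. None of the 26 mitotic and none of the 17 replication genes passed edgeR's quasi-likelihood test between Sugen-hypoxia and normoxia, where 11.5% of 18783 genes did (5.51% higher, 6.01% lower). In Sugen-hypoxia replicate 2 all 26 mitotic genes were at their highest level of the 4 libraries, while in replicate 1 they lay between the normoxic pools in 14 cases (16.9% of all genes did), above both in 6 and below both in 6. Replication genes were lowest of the 4 libraries in Sugen-hypoxia replicate 1 in 15 of 17 cases, beside 34.1% of all genes, and in replicate 2 they ran from -0.33 (Cdt1) to 0.77 (Rrm2) on the log2 scale against the normoxic mean, with a median of 0.20. In both treated pools mitotic genes thus stood higher relative to replication genes than in either normoxic pool, by an amount that differed between the pools.

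The summed level of the 26 mitotic genes was 126 and 177 CPM in normoxic replicates 1 and 2 and 145 and 326 CPM in Sugen-hypoxia replicates 1 and 2. Only the second treated pool lay above both normoxic ones. For the 17 replication genes the sums were 281 and 338 CPM in normoxia and 236 and 342 CPM after treatment, so the groups overlapped, with Sugen-hypoxia replicate 1 lowest. The sum of mitotic over replication CPM was 0.447 and 0.524 in the normoxic pools and 0.613 and 0.952 in the treated pools, which did not overlap. Long and abundant genes weigh most in these sums. With each gene counted equally, as the median log2 ratio to its normoxic mean, mitotic genes were at -0.30 and 0.25 in normoxia and at -0.12 and 1.09 after treatment, and replication genes at -0.15 and 0.13 against -0.46 and 0.20. The mitotic minus replication difference was -0.15 and 0.11 in normoxia and 0.33 and 0.89 after treatment. This is a description of 4 libraries and carries no test.

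**Figure D2:**
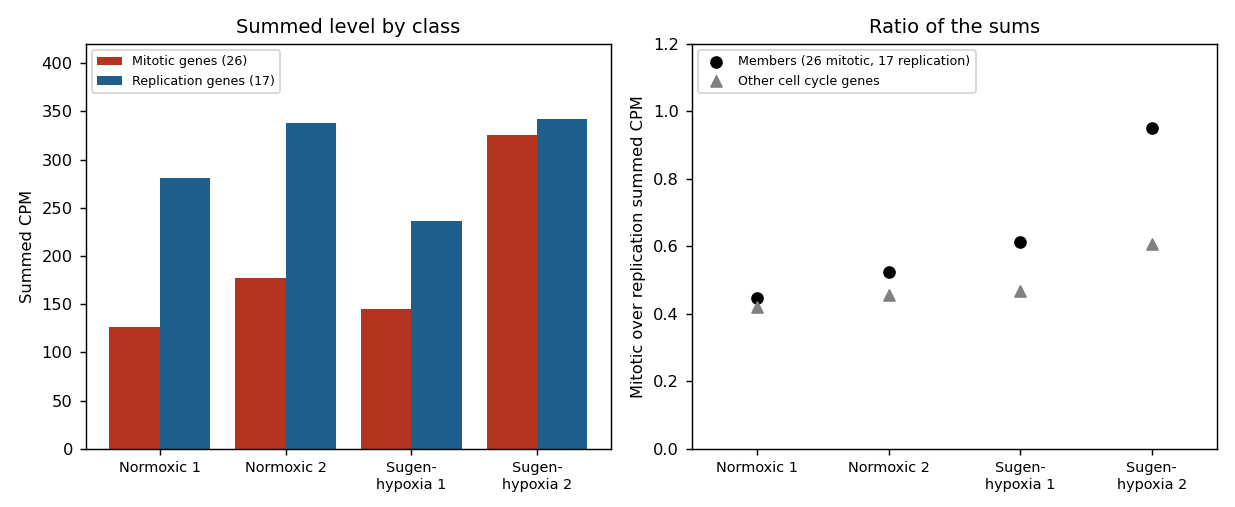
Left, summed CPM of 26 mitotic and 17 replication genes in each of the 4 libraries (bars). Right, the ratio of the mitotic to the replication sum in each library for the 43 members (circles, 0.447, 0.524, 0.613 and 0.952 from left to right) and for 40 other mitotic over 45 other replication genes (triangles, 0.419, 0.456, 0.468 and 0.608).

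The fitted changes separated the classes in the same way. All 26 mitotic genes had a log2 fold change above 0, from 0.27 to 1.47 with a median of 0.68, beside 49.5% of all genes tested above 0 and a median over all of -0.004. Of the replication genes 9 were above and 8 below 0, from -0.32 to 0.23 with a median of 0.01. The standard errors were wide for mitotic genes, with a median of 0.39 against 0.21 for replication genes and 0.12 for all genes tested. At an unadjusted p under 0.05 there were 5 mitotic genes (Kif20a, Cenpf, Prc1, Ube2c and Cdc20), all higher, where 14.9% of all genes were called higher at that level, and 1 replication gene (Cdt1), lower, where 15.2% were called lower. With DESeq2 5 mitotic genes were called higher (background 8.79% higher, 8.53% lower), namely Kif20a, Cenpf, Ube2c, Cdc20 and Cdk1, and with no filter on low counts in edgeR 7 (background 6.52% higher, 6.91% lower), those and Prc1 and Cdkn3. With limma-voom 0 members were called (background 11.5%), and with DESeq2 or without the filter 0 replication genes were.

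**Figure D3:**
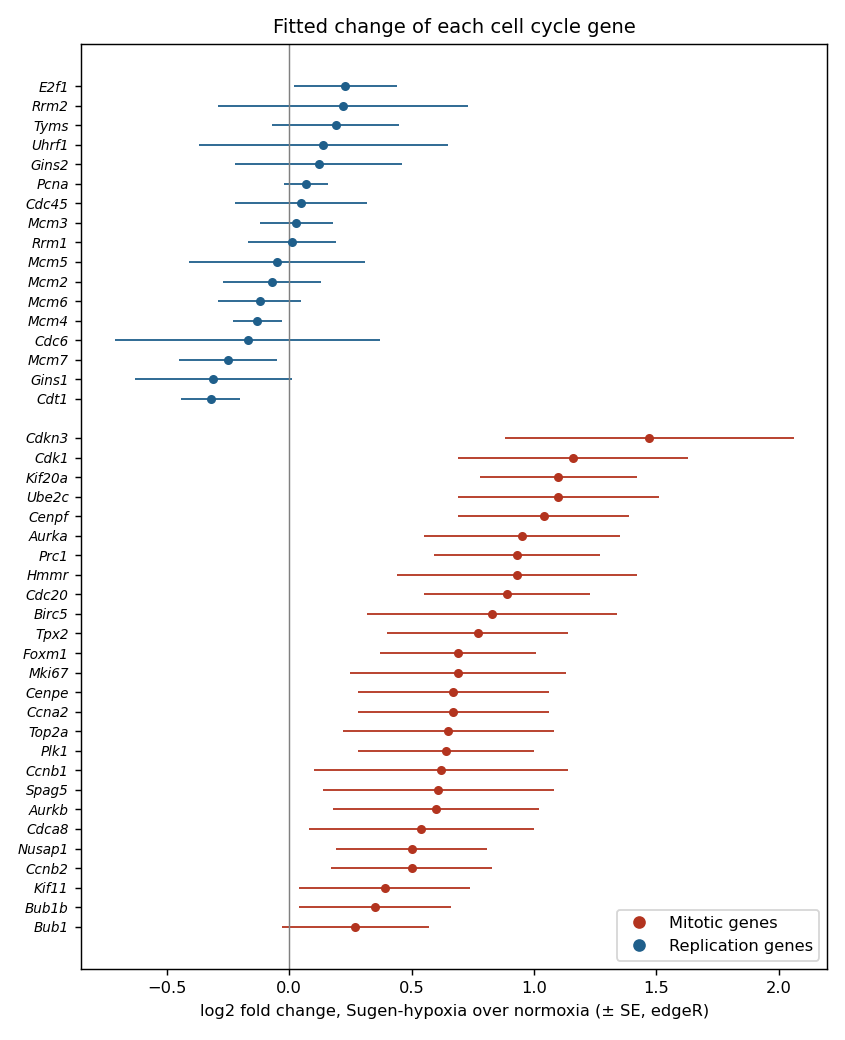
Fitted log2 fold change of each of the 43 genes, Sugen-hypoxia over normoxia, with the standard error derived from edgeR's test as a horizontal bar. The mitotic genes run from 0.27 (Bub1) to 1.47 (Cdkn3), and the replication genes from -0.32 (Cdt1) to 0.23 (E2f1).

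Among mitotic kinases and cyclins, Cdk1 (ENSMUSG00000019942, GRCm38 chromosome 10, 69335146 to 69352938, minus strand), the kinase that drives entry into mitosis, was at 2.35 and 3.69 CPM in normoxic replicates 1 and 2 and at 3.59 and 9.29 CPM in Sugen-hypoxia replicates 1 and 2. The first treated pool lay inside the normoxic range and the second above it. The normoxic mean was 3.02 ± 0.947 CPM and the treated mean 6.44 ± 4.03 CPM (SD, n = 2 each). The fitted difference was 1.16 ± 0.47 (SE) in log2, and edgeR's adjusted p was 0.167. Ccnb1 (ENSMUSG00000041431, chromosome 13, 100778650 to 100786570), the cyclin that partners it, was at 1.46 and 2.78 CPM in normoxia and 1.71 and 4.5 CPM after treatment, with a log2 fold change of 0.62 ± 0.52. Ccnb2, the other B-type cyclin, was at 3.4 and 4.14 CPM against 3.42 and 6.72 CPM. Again only the second treated pool stood outside the normoxic range. Ccna2, the cyclin of S phase and G2, was at 5.21 and 8.19 CPM in normoxia and 6.39 and 13.9 CPM after treatment. The kinase genes Aurka, Aurkb and Plk1, which act on the spindle poles, the centromeres and in mitotic entry and exit, had log2 fold changes of 0.95, 0.60 and 0.64. Levels of those kinases ran from 1.53 CPM (Aurka, normoxic replicate 1) to 6.21 CPM (Aurkb, Sugen-hypoxia replicate 2), and the groups overlapped in each.

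Mki67 and Top2a carry much of the mitotic sum. Mki67 (ENSMUSG00000031004, chromosome 7, 135689784 to 135716361, minus strand), which coats mitotic chromosomes and is the common marker of cycling cells, was at 23.8 and 32.1 CPM in normoxia and at 22.9 and 63.1 CPM in the treated pools. One treated pool was thus the lowest of the 4 libraries and the other the highest. In edgeR it was at 0.69 ± 0.44 in log2, adjusted p = 0.352. Top2a (ENSMUSG00000020914, chromosome 11, 98992943 to 99024189), the topoisomerase that untangles sister chromatids, was at 17.2 and 24.9 CPM against 17.4 and 45.8 CPM, a log2 fold change of 0.65 ± 0.43 with adjusted p = 0.365 (edgeR).

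Ube2c and Cdc20 serve the anaphase-promoting complex as its ubiquitin-conjugating enzyme and its activator. Ube2c (ENSMUSG00000001403, chromosome 2, 164769898 to 164778822) was at 1.94 and 3.83 CPM in normoxia and at 4.13 and 7.61 CPM after treatment, a log2 fold change of 1.10 ± 0.41 with adjusted p = 0.147 (edgeR). Cdc20 was at 3.83 and 6.18 CPM against 6.28 and 11.4 CPM. In both genes the groups did not overlap, by a narrow margin between normoxic replicate 2 and Sugen-hypoxia replicate 1. Of the checkpoint kinases that restrain this complex, Bub1 was at 4.53 and 4.72 CPM against 3.7 and 6.96 CPM and Bub1b at 8.67 and 11.1 CPM against 8.2 and 15.9 CPM. Their log2 fold changes of 0.27 and 0.35 were the lowest of the mitotic genes. In both the first treated pool was the lowest and the second the highest of the 4 libraries.

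Spindle motors and midzone proteins showed both patterns. Kif20a (ENSMUSG00000003779, chromosome 18, 34624613 to 34633277), a kinesin of the central spindle and cytokinesis, was at 3.29 and 4.59 CPM in normoxia and at 5.67 and 10.5 CPM after treatment, with no overlap. At 1.10 ± 0.32 in log2, it had the smallest adjusted p of the members in edgeR, 0.0839. Prc1, the microtubule bundler of the midzone, was at 6.35 and 9.31 CPM against 9.53 and 18.9 CPM, again without overlap. Kif11, the motor that separates the spindle poles, was at 5.36 and 7.14 CPM against 5.09 and 10.5 CPM, with a log2 fold change of 0.39 ± 0.35. The spindle assembly genes Tpx2, Nusap1, Hmmr and Spag5 had log2 fold changes of 0.77, 0.50, 0.93 and 0.61. Hmmr had the highest ratio between the treated pools of all mitotic members, 3.02-fold, at 2.27 and 6.86 CPM.

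At the kinetochore, Cenpf was at 4.27 and 5.22 CPM in normoxia and at 6.02 and 12.6 CPM after treatment, without overlap, with a log2 fold change of 1.04 ± 0.35 and adjusted p = 0.111 (edgeR). The kinetochore motor Cenpe was at 4.5 and 5.68 CPM against 4.61 and 10.8 CPM. The chromosomal passenger genes Birc5 and Cdca8 were at 1.97 and 3.14 CPM against 2.25 and 6.38 CPM, and at 2.5 and 3.11 CPM against 2.08 and 5.72 CPM. In these 3 genes the first treated pool was not above the normoxic range.

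Of the regulators, Foxm1, the transcription factor of the mitotic program, was at 4.78 and 7.11 CPM in normoxia and at 6.47 and 11.8 CPM after treatment, a log2 fold change of 0.69 ± 0.32. Cdkn3 (ENSMUSG00000037628, chromosome 14, 46760541 to 46771669), a phosphatase that acts on cyclin-dependent kinases, had the highest log2 fold change of the members, 1.47 ± 0.59, with adjusted p = 0.167 (edgeR). It was also the rarest, at 0.283 and 0.807 CPM (19 and 47 reads) against 0.942 and 1.91 CPM (54 and 125 reads), so the lowest normoxic pool has a large share in its ratio. Without normoxic replicate 1 its log2 fold change was 0.90 and without normoxic replicate 2 it was 2.38.

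Groups that did not overlap, with both treated pools above both normoxic ones, occurred in 6 of 26 mitotic genes (Cdkn3, Kif20a, Ube2c, Cenpf, Prc1 and Cdc20), a share near the 21.3% found over all genes tested. Among replication genes there were 0 such cases and 1, Cdt1, with both treated pools below, where the share over all genes was 40.0%. Sugen-hypoxia replicate 2 was the highest library for 26 of 26 mitotic and 11 of 17 replication genes, beside 25.0% of all genes.

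**Figure D4:**
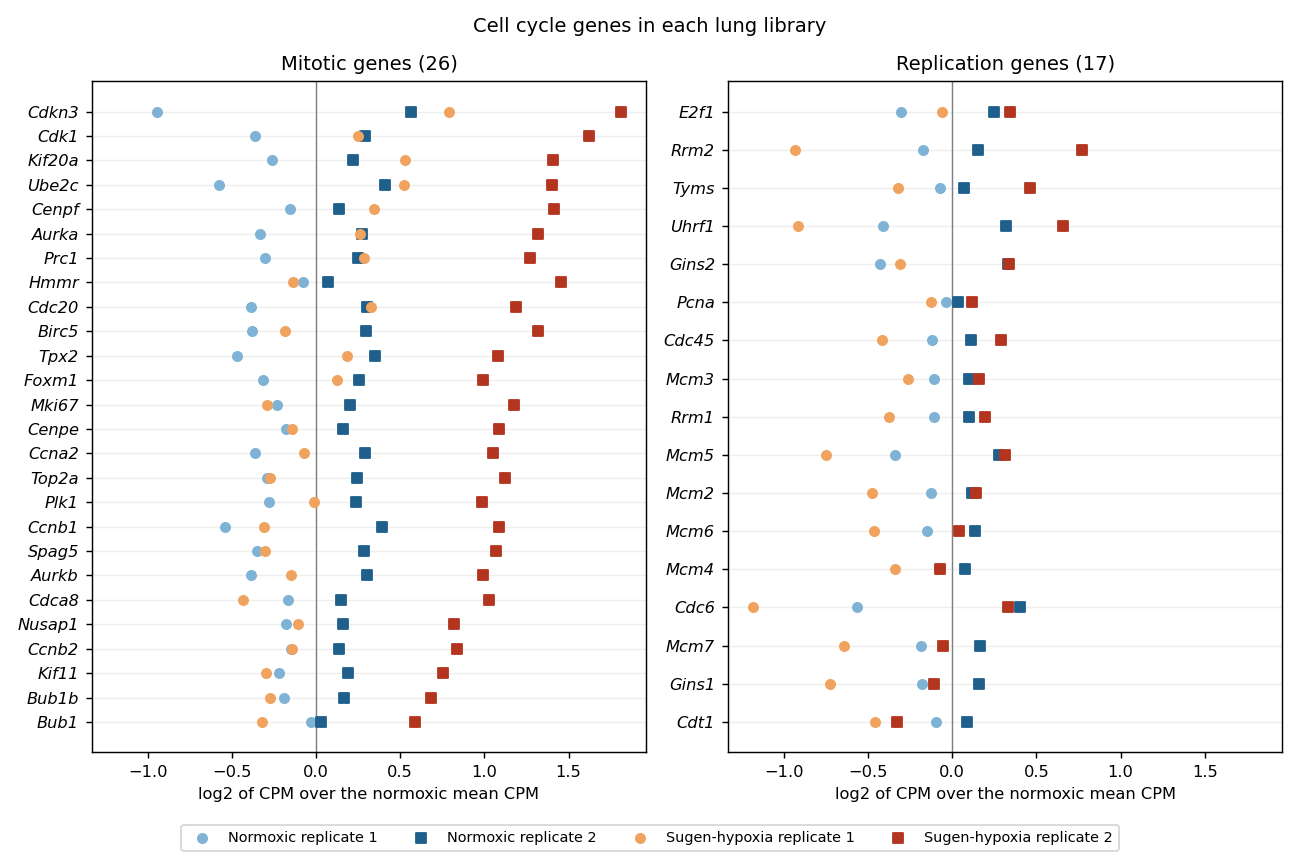
Level of each gene in the 4 libraries as the log2 of its CPM over the normoxic mean, 26 mitotic genes on the left and 17 replication genes on the right, ordered by fitted change. Squares in the darker red, Sugen-hypoxia replicate 2, are the rightmost point for all 26 mitotic genes, and the orange circles, Sugen-hypoxia replicate 1, are the leftmost for 15 of 17 replication genes.

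The replicative helicase is a ring of Mcm2 to Mcm7, which is loaded on origins by Cdc6 and Cdt1 and started by Cdc45 and the Gins proteins. Mcm2 (ENSMUSG00000002870, chromosome 6, 88883474 to 88898780, minus strand) was at 20.6 and 24.3 CPM in normoxia and at 16.1 and 24.7 CPM after treatment, a log2 fold change of -0.07 ± 0.20 with adjusted p = 0.856 (edgeR). Mcm7 was at 25.6 and 32.6 CPM against 18.6 and 28 CPM, a log2 fold change of -0.25 ± 0.20. The other ring subunits, Mcm3, Mcm4, Mcm5 and Mcm6, had log2 fold changes of 0.03, -0.13, -0.05 and -0.12. In all 6 subunits Sugen-hypoxia replicate 1 was the lowest of the 4 libraries, with Mcm5 at 9.04 CPM there against 12 and 18.4 CPM in normoxia. In replicate 2, Mcm2, Mcm3 and Mcm5 were the highest of the 4 libraries, by small margins over normoxic replicate 2.

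Cdt1 (ENSMUSG00000006585, chromosome 8, 122568015 to 122573554), the loading factor whose protein is destroyed once S phase begins, had the lowest log2 fold change of the 43 genes, -0.32 ± 0.12, with adjusted p = 0.151 (edgeR). It was at 9.04 and 10.3 CPM in normoxia and at 7.03 and 7.71 CPM after treatment, and the pools of a group lay close together. Cdc6 was at 2.14 and 4.19 CPM against 1.4 and 3.98 CPM, so the pools within each group differed more than the groups did. Gins1 was at 1.4 and 1.77 CPM against 0.96 and 1.47 CPM, a log2 fold change of -0.31 ± 0.32. Gins2 and Cdc45 had log2 fold changes of 0.12 and 0.05.

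Pcna (ENSMUSG00000027342, chromosome 2, 132249162 to 132253314, minus strand), the sliding clamp of the polymerases, which also serves DNA repair, was the steadiest of the group at 50.1 and 52.5 CPM in normoxia against 47 and 55.7 CPM with Sugen-hypoxia. The fitted difference in log2 was 0.07 ± 0.09 (edgeR, adjusted p = 0.633). E2f1 (ENSMUSG00000027490, chromosome 2, 154559407 to 154569892), a transcription factor of the replication program, was at 11.1 and 16.3 CPM against 13.1 and 17.4 CPM. Both treated pools lay above normoxic replicate 1 and on either side of replicate 2, and its log2 fold change was 0.23 ± 0.21. Uhrf1, which brings DNA methylation to the new strand, was at 6.2 and 10.3 CPM against 4.36 and 13 CPM.

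For nucleotide supply, Rrm2 (ENSMUSG00000020649, chromosome 12, 24708241 to 24714146), the regulated subunit of ribonucleotide reductase, was at 5.88 and 7.39 CPM in normoxia and at 3.47 and 11.3 CPM after treatment. The treated pools thus lay on both sides of the normoxic ones, 3.26-fold apart, the widest gap of the 43 genes. The fitted difference was 0.22 ± 0.51 in log2 (edgeR, adjusted p = 0.808). Rrm1, the other subunit, was at 35.8 and 41.4 CPM against 29.8 and 44.2 CPM, and Tyms, the thymidylate synthase, at 5.76 and 6.35 CPM against 4.85 and 8.36 CPM. All 3 had the same order of libraries, with the treated pools outermost.

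The pools of a group differed more in mitotic genes than is usual in these libraries. Sugen-hypoxia replicate 2 was at 1.82 to 3.02 times replicate 1 over the mitotic genes, with a median of 2.07, and at least 1.5 times in 26 of 26, beside 11.2% of all genes tested and a median over all of 1.02. For replication genes the ratio ran from 1.10 to 3.26 with a median of 1.53, and 10 of 17 reached 1.5 times. Normoxic replicate 2, the mixed pool, was above normoxic replicate 1, the female pool, in 26 of 26 mitotic and 17 of 17 replication genes, beside 55.1% of all genes, with medians of 1.46 and 1.21 times. Between the normoxic pools 1.5 times was reached by 11 mitotic and 4 replication genes, beside 6.17% of all genes.

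Which genes passed therefore rested on 1 treated pool. Without Sugen-hypoxia replicate 1 all 26 mitotic genes were called higher (background 13.4% higher, 12.3% lower), with a median log2 fold change of 1.15, along with 4 of 17 replication genes (Rrm1, Rrm2, Tyms and Uhrf1). Without Sugen-hypoxia replicate 2, 0 mitotic genes were called and their median was -0.04, while 9 replication genes were called lower (background 12.5% lower, 11.9% higher), namely Mcm2, Mcm4, Mcm5, Mcm6, Mcm7, Rrm1, Rrm2, Cdc6 and Uhrf1, with a class median of -0.37. In such a fit the single treated library is assumed to vary as the normoxic pair does. Rrm1, Rrm2 and Uhrf1 were called in opposite directions by the 2 fits. Without normoxic replicate 1 or 2, 0 members were called in either class (background 0.128% and 0.577%), and the mitotic medians were 0.44 and 1.0. The replication median minus the mitotic median was -0.67 with all libraries, and -0.34 and -0.89 without treated replicate 2 and 1.

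**Figure D5:**
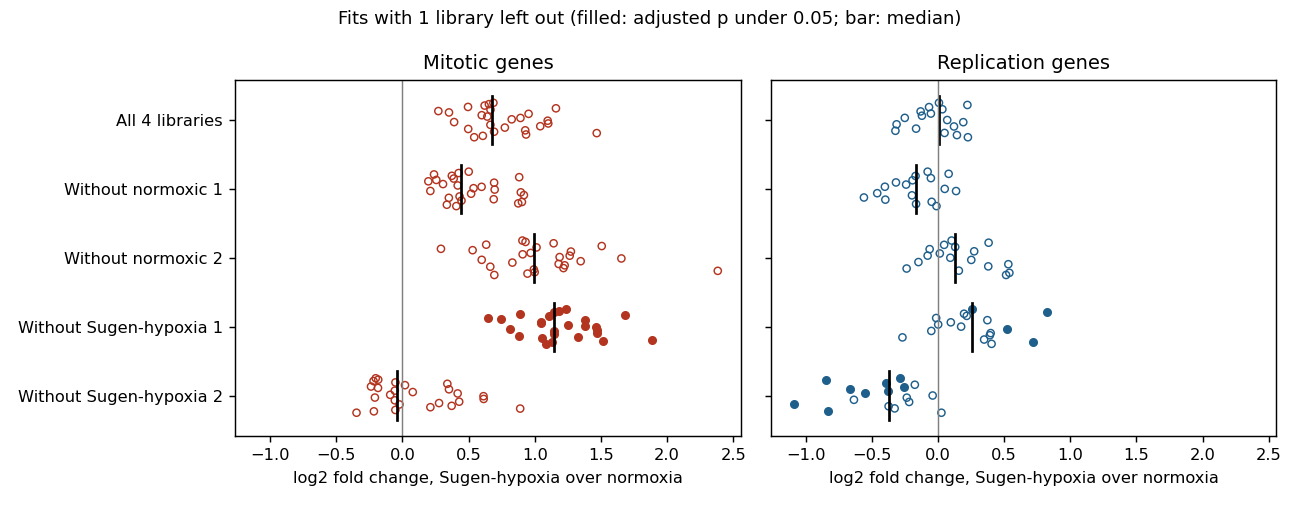
Fitted log2 fold change of each gene (points) with all 4 libraries and with each library left out, mitotic genes on the left and replication genes on the right, filled where edgeR's adjusted p is under 0.05, with the class median as a bar. All 26 mitotic points are filled without Sugen-hypoxia replicate 1 and 0 are without replicate 2, where 9 replication points are filled below 0.

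A fit that also held each pool's share of males, with 1 residual degree of freedom left, called 0 members (background 0.0586%), and the medians there were 0.20 for mitotic and -0.29 for replication genes. The mitotic genes then had 24 of 26 values above 0 and the replication genes 2 of 17. The difference between the classes was -0.49 in that fit. Both treated pools were male only, so the term for sex was set by the normoxic pools alone. Sex and any other difference between those pools cannot be told apart there.

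Per exonic kb, in normoxia, the members ran from 0.23 (Cdkn3) to 2.78 CPM per kb (Mki67) with a median of 0.991 for mitotic genes, and from 0.606 (Cdc6) to 21.4 CPM per kb (Pcna) with a median of 3.23 for replication genes. After treatment the medians of the level per kb were 1.56 and 2.94. Pcna, Mcm4 (9.64 CPM per kb), Mcm6 (7.98), Mcm3 (6.72), Mcm7 (6.57) and E2f1 (4.34) led the normoxic order and were all above the highest mitotic gene. The choice of length matters here, since the longest transcript in place of all exons gave medians of 1.31 and 4.5.

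Other genes of the cycle, from lists beyond the members, showed the division mainly in Sugen-hypoxia replicate 2. Of 40 other mitotic genes 0 passed, where 11.5% of all genes tested did. Among the 40, 36 had a log2 fold change above 0, and the median was 0.50. The smallest p-values among them were those of Ckap2, a spindle protein, with a log2 fold change of 1.26 ± 0.34, and of Spc25, a kinetochore subunit, with 1.24 ± 0.39. Sugen-hypoxia replicate 2 was the highest library for 37 of these 40, and their median log2 ratio to the normoxic mean was -0.14 in replicate 1 and 0.84 in replicate 2. Of 45 other replication genes 1 passed, 23 were above 0 and the median was 0.01. The one that rose was Timeless, a component of the replication fork also tied to the circadian clock, from 15.2 and 17.4 CPM to 24.5 and 27.2 CPM, a log2 fold change of 0.73 ± 0.10 with adjusted p = 0.013 (edgeR). Sugen-hypoxia replicate 2 was at 1.11 times replicate 1 in this gene, near the median of 1.17 times over these 45 genes. The median was 1.53 times over the replication members and 1.02 times over all genes tested. The difference between other mitotic and other replication genes was 0.08 in Sugen-hypoxia replicate 1, inside the normoxic values of -0.11 and 0.09, and 0.74 in replicate 2. In the first treated pool the wider gap of the 43 members was thus not seen in the medians of these lists, and the difference between members and lists was not tested.

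Of 11 G1 cyclins and kinases 0 passed, beside 11.5% of all genes tested, with 10 above 0. The D-type cyclin Ccnd2 came nearest, at 217 and 205 CPM in normoxia and 251 and 241 CPM after treatment, with adjusted p = 0.0552 (edgeR), followed by the phosphatase Cdc25a at 0.29 on the log2 scale. Of 7 CDK inhibitors 2 rose, where 5.51% of all genes tested were called higher. Cdkn1a, the inhibitor induced by p53, went from 93.8 and 78.6 CPM to 197 and 204 CPM (log2 fold change 1.29 ± 0.10, adjusted p = 0.00468 in edgeR), and Cdkn2c from 19.3 and 19.7 CPM to 23.8 and 23.4 CPM (0.34 ± 0.07, adjusted p = 0.0403 in edgeR). In both the treated pools were close to each other, whereas their mitotic genes were not. The median ratio of Sugen-hypoxia replicate 2 to replicate 1 was 1.02 over the 7 CDK inhibitors and 1.02 over all genes tested. Of 19 pocket protein, E2F and MuvB genes 1 rose, a share near the 5.51% over all genes. It was E2f3, an activator E2F, from 11.4 and 13.2 CPM to 18.6 and 18.4 CPM (0.66 ± 0.10, adjusted p = 0.018 in edgeR). Of 13 G2 checkpoint genes 0 passed, with 7 above 0 in log2 fold change and 6 below. The kinase gene Atr was at -0.27 ± 0.07 and the phosphatase Cdc25b at -0.22 ± 0.07. The highest value of that list, singled out after it was seen, was Gtse1, a regulator of p53 and microtubules, at 1.2 ± 0.39 (adjusted p = 0.104 in edgeR), with 1.19 and 2.2 CPM in normoxia and 2.79 and 4.64 CPM after treatment.

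Marker genes of other cell types moved beside these values, and their part in them was not tested. Over all genes tested, 5.51% were called higher and 6.01% lower, the shares to set beside the counts below. Summed markers of blood cells were lower in both treated pools. Of T and NK genes 11 of 14 fell, with sums of 160 and 140 CPM in normoxia and 72.9 and 89.0 CPM after treatment. So did 6 of 8 B and plasma cell genes (352 and 314 against 113 and 228 CPM) and 6 of 7 neutrophil genes (485 and 645 against 265 and 206 CPM). Their most abundant genes were Il7r and Cd2 for T and NK cells, Jchain and Cd79a for B and plasma cells, and S100a9 and Csf3r for neutrophils. Il7r, Cd2 and Jchain did not pass. Jchain, at 95.7 CPM of the 228 CPM sum, was highest in Sugen-hypoxia replicate 2. Sugen-hypoxia replicate 2 was the highest library for 25.0% of all genes tested. It was so for 4 of 7 alveolar macrophage genes and 4 of 8 other macrophage and monocyte genes. The same held for 5 of 8 smooth muscle and fibroblast genes and 1 of 8 B and plasma cell genes. Of the T and NK, neutrophil and endothelial genes it was so for 0. Chil3, a chitinase-like protein of activated macrophages, rose from 684 and 601 CPM to 1545 and 4337 CPM (adjusted p = 0.036 in edgeR), and with it the sum of the 7 alveolar macrophage genes went from 835 and 734 to 1686 and 4513 CPM, while the other 6 did not pass. The sums of the other macrophage and monocyte genes (2 of 8 higher, 1 lower) were 443 and 411 against 412 and 645 CPM, with Csf1r, the most abundant, at 188 and 179 against 151 and 175 CPM. Arg1, the arginase of alternatively activated macrophages, rose from 1.65 and 1.7 to 26.3 and 113 CPM. Jchain, the joining chain of antibody-secreting cells, was at 45.4 and 28.5 against 12.1 and 95.7 CPM. Arg1 was singled out after its values were seen. The 8 smooth muscle and fibroblast genes (2 higher) summed to 2134 and 2277 against 2660 and 3188 CPM. Their most abundant gene, the collagen gene Col1a1, was highest in Sugen-hypoxia replicate 2, at 525 and 628 against 772 and 1225 CPM, and did not pass. The sums of the 8 endothelial genes (1 higher, 4 lower) were 4029 and 3978 against 4309 and 3807 CPM, and the most abundant, the cadherin gene Cdh5, was the one that rose. The 6 type 2 alveolar genes (0 passed) were level at 24823 to 25339 CPM.

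Lists for precursor cells held 0 genes that passed, but many of their genes fell below the filter on low counts. Those tested were 1 of 5 granulocyte progenitor, 1 of 5 thymocyte and 5 of 7 erythroid genes. The 5 granulocyte progenitor genes summed to 1.31 and 1.15 CPM in normoxia and 0.907 and 0.429 CPM after treatment, most of it Prtn3, with 2 to 3 of the 5 at 0 in each library. The 5 thymocyte genes summed to 11.5 and 13.0 against 8.88 and 10.5 CPM, most of it Cd1d1, while Ptcra was at 0 in all 4 libraries and Rag1 at 0.137 CPM or less. The 7 erythroid genes summed to 111 and 124 against 112 and 111 CPM. Their most abundant gene was Tfrc, the transferrin receptor, at 84.5 and 95.9 against 64.9 and 91.6 CPM. Alas2, the heme synthesis enzyme of red cell precursors, was at 22.1 and 22.8 against 44.5 and 17.5 CPM, highest in Sugen-hypoxia replicate 1. The part of precursor cells in the levels of the members was not tested.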

How the data were processed

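RNA sequencing of lung was analysed in 4 libraries, 2 normoxic and 2 given Sugen with hypoxia, numbered in record order. The deposited values are whole-number read counts for every gene, not normalized. Per the submitters' processing notes, STAR 2.5.1b, HTSeq and GRCm38.p4 were used, and the annotation and kit are not named there. The column of reads antisense to read 1, 20.9 to 24.9 times the sense column, was used. Summary rows that name no gene (20.95 to 22.06% of reads) were left out. Of 47729 genes, 47310 matched GENCODE M21 (GRCm38), which gave symbols, coordinates and exon lengths. For 67 symbols with several identifiers, the identifier with most reads was kept.

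Genes kept by filterByExpr (18783) were tested with edgeR 4.0.16 (R 4.3.3; quasi-likelihood, TMM factors of 0.967 to 1.03, group as the only term, Benjamini-Hochberg over all genes, 0.05, two-sided, 2 residual degrees of freedom). Standard errors of its fold changes were derived from the test, as the absolute log2 fold change over the square root of the F statistic. CPM values are scaled by total gene counts alone. In simulated data for this comparison (18783 genes, 5 draws, 200 changed) it recovered 35.2% of 1.5-fold, 56.4% of 2-fold and 80.2% of 4-fold changes, and 13.1% of its calls were false. The changed genes were drawn at random from all genes tested, whose median standard error was 0.12 against 0.39 for mitotic members. These rates are thus not those of the members. In the real data 2163 genes were called, so the false share may differ there. Alternatives used DESeq2 1.42.0 and limma 3.58.1, other scalings, filters and columns, pool sex and each library left out. The members and lists were chosen with earlier results of these data known, so lists carry counts and medians only. In each class, values are given for the 4 highest and 4 lowest log2 fold changes and for Mki67, Top2a, Cdk1, Ccnb1, Pcna, Mcm2, Rrm2 and E2f1; other members are given beside them. Cell type lists name genes of highest mean CPM, with defining genes at or near 0 beside them. Promoter windows are from RefSeq (GRCm38.p6), 1 per gene, nearest the GENCODE start. Some RefSeq starts lay far from it, among them those of Cdc6 (350 bases), Mcm7 (539) and Cdca8 (2394), and their windows were counted.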

Additional observations from a re-analysis of the deposited data

How the results depend on the processing

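The replication median stayed below the mitotic median in every fit run, by 0.34 to 0.89 on the log2 scale. Counts of calls depended on the fit. Of the other cell cycle lists (40, 45, 11, 7, 19 and 13 genes) 4 genes were called in edgeR's main fit, beside 11.5% of all genes. DESeq2 called 3254 of 18783 genes in all (8.79% higher, 8.53% lower), 5 mitotic members and 11 genes of the other lists. No filter gave 3657 of 27235 genes (6.52% higher, 6.91% lower), 7 and 18. Library size alone gave 2349 genes in all and 7 of the other lists. The male fraction as a covariate gave 11 genes in all (0.0586%) and 0 of the other lists. With 1 library left out the counts ran from 25 to 5101 genes, 0 to 26 mitotic members, 0 to 9 replication members and 1 to 55 genes of the other lists. Signs also changed, among them those of mitotic genes such as Mki67 (0.69 with all libraries), since without Sugen-hypoxia replicate 2 14 of 26 mitotic genes were below 0. With the male fraction Ccnb1 was at -0.23, Rrm2 at -0.08, Uhrf1 at -0.53 and E2f1 at -0.29. With 1 library left out Mki67 ran from -0.20 to 1.23, Top2a from -0.18 to 1.18, Ccnb1 from -0.22 to 1.15, Ccnb2 from -0.05 to 0.89, Bub1 from -0.24 to 0.65, Bub1b from -0.18 to 0.74, Kif11 from -0.21 to 0.81, Rrm2 from -0.85 to 0.83, Mcm2 from -0.39 to 0.20, Mcm7 from -0.55 to 0.00, Pcna from -0.04 to 0.18, Tyms from -0.24 to 0.52, Cdc6 from -1.09 to 0.39, Uhrf1 from -0.83 to 0.72 and E2f1 from -0.01 to 0.52. The fits without a treated pool drop the spread between treated pools; other causes were not tested. Another E2F core (GGCGGGAA or TTCCCGCC) was found in 0 mitotic windows (1 with the main sites) and in 3 of 14 replication windows (21.4%, against 6 of 14), beside 2.80% of all windows. Added after seeing the data, each treated pool alone gave a mitotic median of -0.12 and 1.09, and means in place of medians a class difference of -0.77. No paired analysis was possible because the labels number no replicates across groups.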
